A study of Mus musculus with 6 samples.

Results

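The 45 genes described here are cell cycle genes of S phase and mitosis. They were taken from the arrays by gene name, with every probe of each gene, out of 30154 genes or unnamed transcripts on the array. The list holds 16 genes of DNA replication, 3 regulators of the step from G1 into S phase, 23 mitotic genes and 3 D cyclins. RNA came from the anterior pituitary of female mice, from sorted side population cells, which pump out Hoechst dye, without those of high Sca1. This sorted fraction is the one in which pituitary stem cells cluster. Sorted RNA was amplified from 1 ng and hybridised in 1 colour to 6 Agilent arrays on 3 slides.

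All mice carried iDTR, a Cre-dependent diphtheria toxin receptor, and diphtheria toxin was given to every mouse 2 times a day, with 4 ng for each g of body weight. GHCre/iDTR mice also carried a Cre driven by the growth hormone promoter, so that the toxin acts on cells with a history of growth hormone expression. The -/iDTR mice had no Cre and are called control mice here. The arrays are 2 from GHCre mice and 2 from control mice after 3 days of toxin, and 1 from GHCre mice and 1 from control mice after 10 days. Mouse age, and whether a sort pooled several mice, are not given in the sources used here. The p-values therefore measure only the spread between these samples. Fewer cycling cells and less RNA per cell cannot be told apart in such sorted bulk RNA.

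Levels are log2 signal relative to the 75th percentile of each array, and differences are GHCre minus control on that scale. A probe was counted as detected where the scanner software called it well above background. Of all genes on the array, 65.3% and 62.5% were detected on the GHCre arrays of 3 days and 55.2% and 64.2% on the control arrays of 3 days. On the arrays of 10 days the share was 66.8% in GHCre and 63.9% in control mice. Replicate 1 of the 3 day controls is the array with the lowest share. The free-text descriptions of some samples contradict their titles, and the titles, which match the genotype and treatment fields, were used. Gh, the growth hormone gene, had levels of 5.46 and 2.20 in GHCre mice, against 5.69 and 3.65 in control mice, after 3 days, and 2.21 in GHCre mice against 7.86 in control mice after 10 days. The overlap of the 3 day values leaves the group labels of those arrays without a check from Gh. Among the stem cell markers, the probe of Sox2 was not well above background on any array, while the efflux pump gene Abcg2 was detected on all 6.

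A cell that commits to division first turns on genes for DNA replication. E2F factors, released when cyclin D kinases and cyclin E kinases inactivate the retinoblastoma protein, drive these genes through E2F sites near their starts. Mitotic genes come on later, in G2 phase, through the MuvB complex with B-Myb and FOXM1. It acts at CHR elements, often paired with CCAAT boxes bound by NF-Y. Transcripts of the first kind can be abundant in cells that are not in mitosis, whereas those of the second kind mark cells in G2 phase and mitosis. Most pituitary stem cells of adult mice divide rarely.

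Promoters of both kinds of gene are shown because the list is divided by them. Windows from 250 bases before to 50 bases after the start came from RefSeq, build GRCm38.p6, and matched 14 of the 16 replication genes and 18 of the 23 mitotic genes. Both strands were searched. E2F motifs were TTCCCGC and its variant form TTGGCGC, along with the variant TTCGCGC and the further variant TTGCCGC. CHR motifs were TTTGAA or its variant form TTCGAA, while the NF-Y box was CCAAT. Motifs of different kinds overlapped in 2 replication windows and 1 mitotic window. An E2F motif was present in 12 of 15 replication windows (80%) and in 3 of 18 mitotic windows (16.7%), with 9.57% among all 32851 windows. A CHR motif was present in 2 replication windows (13.3%) and 14 mitotic windows (77.8%), with 19.2% among all windows. CCAAT was found in 73.3% of replication windows, 88.9% of mitotic windows and 37.4% of all windows. Other replication genes not among the 45 had an E2F motif in 54.5% of 33 windows and a CHR motif in 24.2%, and other mitotic genes had them in 25.7% and 71.4% of 35 windows. A match is a run of letters and was not tested for binding. No window was in the table for Mcm4, Gins2, Ccne2, Ccna2, Foxm1, Aurkb, Kif20a, Tpx2, Ccnd1 and Ccnd2. The 190 bases before the start are printed for 3 replication genes and 3 mitotic genes, 5′ to 3′ on the strand of the gene, with the motifs above in capitals.
The replication genes are Mcm5 at chr8:75109319-75109508 on the plus strand, Mcm6 at chr1:128359706-128359895 on the minus strand and Pola1 at chrX:93632156-93632345 on the minus strand.
Mcm5: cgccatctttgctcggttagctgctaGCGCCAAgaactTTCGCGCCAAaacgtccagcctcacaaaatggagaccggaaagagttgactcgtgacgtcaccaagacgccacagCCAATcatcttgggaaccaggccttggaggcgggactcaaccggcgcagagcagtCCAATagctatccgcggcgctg
Mcm6: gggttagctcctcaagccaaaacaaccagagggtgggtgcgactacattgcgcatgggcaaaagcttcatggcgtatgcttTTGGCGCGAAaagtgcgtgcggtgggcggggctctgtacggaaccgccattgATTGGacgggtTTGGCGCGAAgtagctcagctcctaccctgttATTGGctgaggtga
Pola1: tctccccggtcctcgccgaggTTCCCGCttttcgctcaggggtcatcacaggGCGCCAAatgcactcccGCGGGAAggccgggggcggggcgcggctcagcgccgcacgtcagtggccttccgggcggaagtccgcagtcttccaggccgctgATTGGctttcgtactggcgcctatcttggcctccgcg
The mitotic genes are Cdk1 at chr10:69352913-69353102 on the minus strand, Mki67 at chr7:135716380-135716569 on the minus strand and Ube2c at chr2:164769739-164769928 on the plus strand.
Cdk1: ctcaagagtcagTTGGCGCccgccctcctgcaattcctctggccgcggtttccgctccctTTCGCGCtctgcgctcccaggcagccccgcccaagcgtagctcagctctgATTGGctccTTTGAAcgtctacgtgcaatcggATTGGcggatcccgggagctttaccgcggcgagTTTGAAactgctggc
Mki67: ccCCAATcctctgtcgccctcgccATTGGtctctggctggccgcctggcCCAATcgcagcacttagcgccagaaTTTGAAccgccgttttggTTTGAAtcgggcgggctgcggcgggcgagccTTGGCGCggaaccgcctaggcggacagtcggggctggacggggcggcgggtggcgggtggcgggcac
Ube2c: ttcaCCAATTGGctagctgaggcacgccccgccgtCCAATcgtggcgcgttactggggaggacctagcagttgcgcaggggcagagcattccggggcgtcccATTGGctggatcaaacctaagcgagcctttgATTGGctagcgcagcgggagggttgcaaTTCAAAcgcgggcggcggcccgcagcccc
In 3 further mitotic genes whose values are given below, the CHR motif lies just after the start, and 30 bases around it are printed with the motif in capitals, for Aurka at chr2:172370521-172370550 on the minus strand, Plk1 at chr7:122159453-122159482 on the plus strand and Cenpa at chr5:30666890-30666919 on the plus strand.
Aurka: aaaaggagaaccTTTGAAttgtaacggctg
Plk1: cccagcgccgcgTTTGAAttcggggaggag
Cenpa: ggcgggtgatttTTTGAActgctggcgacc

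**Figure D1:**
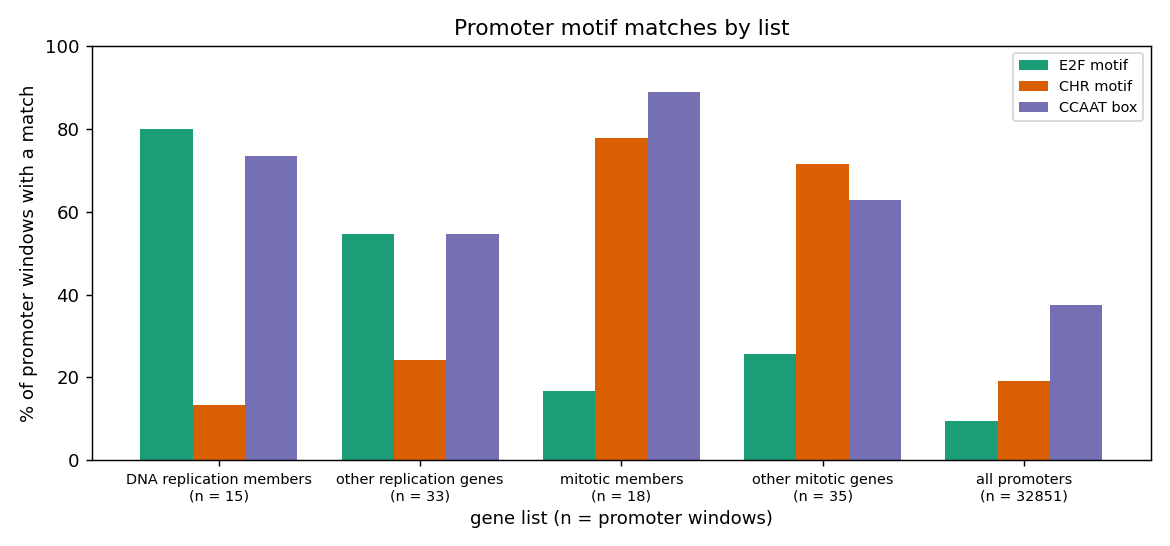
Share of promoter windows, in percent, that hold an E2F motif, a CHR motif or a CCAAT box, for DNA replication members, other replication genes, mitotic members, other mitotic genes and all windows. The E2F bar is at 80% for replication members and the CHR bar at 77.8% for mitotic members, against 9.57% and 19.2% for all windows.

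Detection differed between the roles on the list. Of the 16 replication genes, 11 (68.8%) were well above background on all 6 arrays and none was below it on all of them. Of the 23 mitotic genes, 6 (26.1%) were detected on all 6 arrays and 5 (21.7%) on none. Of all genes on the array, 48.9% were detected on all 6 and 22.8% on none. The 6 mitotic genes detected throughout were Mki67, Cdk1, Aurka, Plk1, Ube2c and Birc5. By their brightest probe, undetected throughout were Ccnb1, which encodes cyclin B1 and had a dimmer probe detected on the GHCre array of 10 days, the spindle checkpoint kinase gene Bub1, the chromosomal passenger kinase gene Aurkb, the kinetochore gene Cenpf, the spindle motor gene Kif11 and, among the G1/S regulators, Ccne2, which encodes a cyclin E. Top2a, the topoisomerase that untangles sister chromatids, was detected on 1 array, replicate 2 of GHCre after 3 days. Without replicate 1 of the 3 day controls, 13 replication genes (81.3%) and 8 mitotic genes (34.8%) were detected on all remaining arrays. Mitotic genes outside the list gave a like division, with 12 of 40 detected on all 6 arrays and 14 on none, against 20 of 32 and 1 for the other replication genes.

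After 3 days, 16 and 15 mitotic genes were detected in GHCre mice, against 10 and 11 in control mice. After 10 days the number was 11 in GHCre mice and 13 in control mice. The 3 day groups do not overlap in this count. For the replication genes the counts were 16 and 16 in GHCre mice, against 14 and 13 in control mice, after 3 days, and 15 in each genotype after 10 days. The other mitotic genes showed no such division, with 19 and 19 of 40 detected in GHCre mice and 19 and 19 in control mice after 3 days, and 22 in GHCre against 19 in control mice after 10 days. Since 1 of the 2 control arrays also had fewer genes of any kind above background, its part in these counts was not tested.

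**Figure D2:**
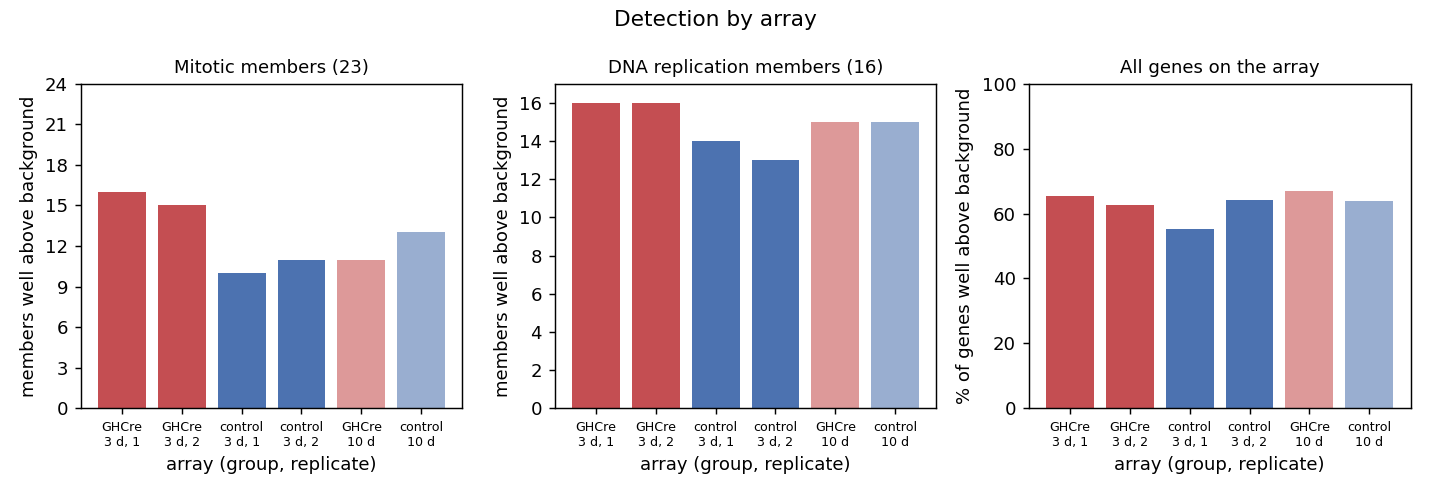
Number of mitotic and of DNA replication members well above background on each array, and the percentage of all genes on the array that were. Bars are single arrays, in red for GHCre and blue for control, paler for 10 days. The 3 day GHCre arrays detect 16 and 15 mitotic genes, against 10 and 11 for the 3 day control arrays.

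**Figure D3:**
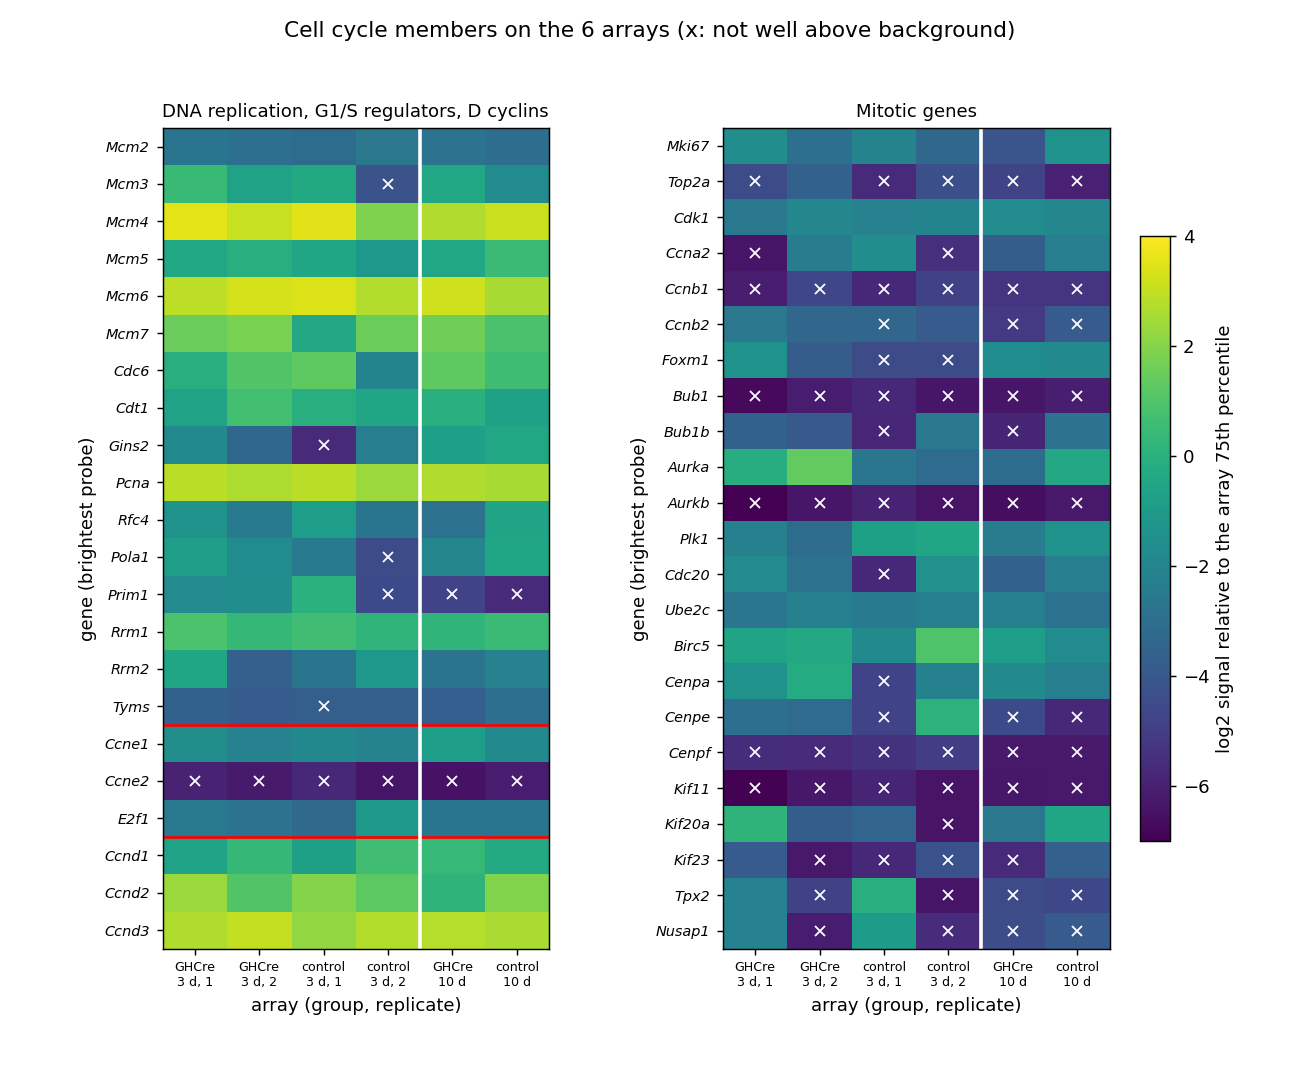
Level (log2, relative to the 75th percentile) for the brightest probe of each of the 45 members on the 6 arrays, with a cross where the probe was not well above background. Crosses fill the rows of Ccnb1, Bub1, Aurkb, Cenpf, Kif11 and Ccne2, and few rows of the replication block hold any. Colours compare arrays within a row.

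The comparison of GHCre with control mice after 3 days asks whether cell cycle genes of the stem cell fraction differ early in the ablation of growth hormone cells. No member passed an adjusted p of 0.05 in limma, as no gene of the 20946 tested did (0% called), and the lowest adjusted p of a member was 0.693. At an unadjusted p under 0.05, 1374 of all genes tested and 2 members were found, Aurka and Plk1, in opposite directions. Of the 38 members that passed the filter on dim probes, 5 had GHCre replicates wholly above the control replicates and 1 had them wholly below. Among all genes tested, 16.6% lay wholly above and 21.3% wholly below, so the members' shares stand below those of all genes in both directions. The 5 are Mcm5, Pola1, Foxm1, Aurka and Cenpa, and the 1 is Plk1.

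The replication genes had a median difference of 0.46 after 3 days, with 13 of 16 higher and 3 lower in GHCre mice, against a median of -0.04 over all genes tested. Within slide 1, which holds the replicates numbered 1, their median difference was 0.13, and within slide 3, which holds those numbered 2, it was 0.43. The array medians of these genes were -0.46 and -0.37 in GHCre mice, against -0.36 and -1.58 in control mice, so the groups overlap and replicate 2 of the controls alone stands low. The SD between replicates of such a median was 0.61, more than the difference. Under the sample descriptions in place of the titles the median was -0.16. That comparison mixes days and genotypes and leaves out both 3 day GHCre arrays, so it is not the same contrast.

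The MCM genes encode the helicase that opens replication origins. Mcm5 had levels of -0.39 and -0.08 in GHCre mice, against -0.55 and -1.13 in control mice. The groups do not overlap, by a narrow margin. The difference was 0.60 ± 0.46 (SE; adjusted p = 0.868 with limma). Mcm3 had levels of 0.46 and -0.67 in GHCre mice, against -0.33 and -4.17 in control mice, the last not above background. A second probe of Mcm3 repeated this order of arrays, with 0.10 and -0.84 in GHCre mice, against -0.74 and -5.05 in control mice. The difference of 2.15 ± 1.46 thus rests on 1 control array. Mcm7 stood at 1.49 and 1.79 in GHCre mice, against -0.38 and 1.53 in control mice, where replicate 1 was the low array. Mcm4 read 3.55 and 3.08 in GHCre mice, against 3.51 and 1.87 in control mice. In the remaining helicase genes the groups overlap and the replicates differ by more than the means. Mcm2 was at -2.71 and -3.00 in GHCre mice, against -3.13 and -2.64 in control mice, and Mcm6 at 2.91 and 3.30 in GHCre mice, against 3.43 and 2.75 in control mice, with differences of 0.03 ± 0.44 and 0.02 ± 0.48.

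Pola1, the catalytic subunit of DNA polymerase alpha that starts each new strand, had levels of -0.84 and -1.66 in GHCre mice, against -2.50 and -4.43 in control mice, the last not above background. The GHCre arrays were higher on both slides, by 1.66 and 2.76. The difference was 2.21 ± 0.84, a 4.63-fold higher level (unadjusted p = 0.0569, adjusted p = 0.763 with limma), and its probe lies at chrX:90550189-90550248 of mm9. It was 0.81 with normexp background correction, 1.25 when replicate 2 of the controls was left out and 3.175 when replicate 1 was. Prim1, the primase subunit that works with Pola1, stood at -1.71 and -1.61 in GHCre mice, against 0.01 and -4.55 in control mice, the last not above background. Its replicates lie close together in GHCre mice and far apart in control mice.

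Loading and licensing factors varied between replicates without order by genotype. Cdc6, which loads the helicase, read -0.10 and 0.99 in GHCre mice, against 1.27 and -2.02 in control mice. Cdt1, its partner in loading, read -0.66 and 0.65 in GHCre mice, against -0.11 and -0.55 in control mice. Gins2, a subunit of the active helicase, read -1.72 and -3.33 in GHCre mice, against -5.71 and -2.29 in control mice, the first not above background. In each of them the groups overlap. Rfc4, a subunit of the clamp loader, had probes that disagree after 3 days, with a difference of -0.12 for the brighter and 1.86 for the other.

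The sliding clamp and the genes of nucleotide supply overlapped between the groups. Pcna, the sliding clamp, was at 2.87 and 2.66 in GHCre mice, against 2.85 and 2.35 in control mice, with 2.70 in GHCre and 2.56 in control mice after 10 days. Its whole range over the 6 arrays was 0.51, and its difference after 3 days was 0.16 ± 0.44. Rrm1, the large subunit of ribonucleotide reductase, read 0.88 and 0.33 in GHCre mice, against 0.63 and 0.21 in control mice. Rrm2, the small subunit that is made in S phase, read -0.53 and -3.63 in GHCre mice, against -2.76 and -1.14 in control mice, so its replicates differ more than its groups. Tyms, the thymidylate synthase gene, read -3.58 and -3.78 in GHCre mice, against -3.68 and -3.64 in control mice, the first not above background, with an SD of 0.14 in GHCre and 0.03 in control mice.

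The mitotic genes had a median difference of -0.07 after 3 days, with 9 of 23 higher and 14 lower in GHCre mice. This median includes members not detected on any array, and among the 17 tested it was -0.04 with 8 higher and 9 lower. Within slide 1 the median was 0.47 and within slide 3 it was 0.15. The array medians of the mitotic genes were -2.63 and -3.57 in GHCre mice, against -4.43 and -4.22 in control mice. These array medians do not overlap, while the median difference per gene is near 0, and the median gene was below background on several arrays. The median difference of the mitotic genes minus that of the replication genes was -0.54 after 3 days. Its SD between replicates was 0.89, and it was 0.30 or 0.04 when replicate 2 of control or of GHCre was left out.

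Aurka, the kinase that matures centrosomes and builds the spindle, had the widest difference among the 38 members tested. Its levels were -0.16 and 1.34 in GHCre mice, against -2.66 and -3.14 in control mice. All 4 arrays were above background, and both GHCre arrays stand far above both controls. The GHCre level was 11.3-fold higher, with a difference of 3.49 ± 0.68 (unadjusted p = 0.00671, adjusted p = 0.693 with limma), and of 2.50 and 4.48 within the slides. The adjusted p lay between 0.433 and 1 over 13 alternatives. The probe lies at chr2:172181726-172181785 of mm9. After normexp background correction the difference was 2.18.

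Plk1, the kinase that drives entry into and passage through mitosis, went the other way. Its levels were -2.20 and -3.13 in GHCre mice, against -0.74 and -0.53 in control mice. Both GHCre arrays lie below both controls, and the controls lie close together. The level was 4.08-fold lower in GHCre mice, a difference of -2.03 ± 0.52 (unadjusted p = 0.0169, adjusted p = 0.703 with limma), with -1.46 and -2.60 within the slides and -1.24 after normexp correction. The probe lies at chr7:129313220-129313279 of mm9. Aurka and Plk1 are kinases of the same stage, both with a CHR motif in the sequences above, and their values ran in opposite directions between the same arrays.

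Cenpa, the histone variant that marks centromeres, had levels of -1.37 and -0.24 in GHCre mice, against -4.79 and -2.15 in control mice, the first of which was not above background. The difference was 2.67 ± 1.08 (adjusted p = 0.785 with limma), with 1.35 when that control array was left out and 1.02 after normexp correction. Foxm1, the transcription factor of the mitotic genes, read -1.34 and -3.75 in GHCre mice and was not above background on either 3 day control array, both at -4.43. Its signal was 3.70-fold higher in GHCre mice (adjusted p = 0.831 with limma), but its second probe differed by -0.23. That fold holds for the reported scaling and both GHCre arrays, and is no bound, as undetected control signals entered it. The difference was 1.89, with 0.68 when replicate 1 of GHCre was left out and 0.45 after normexp correction. Kif20a, a motor of cell division, read 0.17 and -3.78 in GHCre mice, against -3.42 and -6.42 in control mice, with GHCre above control on each slide and overlap between the slides. Its difference was 3.12 ± 1.79. Top2a read -4.48 and -3.57 in GHCre mice, against -5.63 and -4.33 in control mice, and of these only -3.57 was above background. Its groups overlap.

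The markers of proliferation in common use had overlapping groups after 3 days. Mki67, the Ki-67 antigen gene, had levels of -1.62 and -2.97 in GHCre mice, against -2.09 and -3.27 in control mice. The groups overlap and the difference was 0.39 ± 0.74. Cdk1, the kinase that starts mitosis, read -2.58 and -1.89 in GHCre mice, against -2.14 and -2.05 in control mice. Ube2c, which tags mitotic proteins for destruction, read -2.68 and -2.15 in GHCre mice, against -2.49 and -2.26 in control mice. Birc5, the survivin gene, read -0.57 and -0.36 in GHCre mice, against -1.77 and 0.98 in control mice, where the replicates straddle both GHCre arrays.

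Among the remaining mitotic genes the replicates of a group often fell on either side of the detection limit. Ccna2, the cyclin A gene, read -6.39 and -2.33 in GHCre mice, against -1.60 and -5.54 in control mice, with replicate 1 of GHCre and replicate 2 of control not above background. Tpx2 and Nusap1, spindle assembly factors, were detected in replicate 1 of each genotype and in neither replicate 2, which is a division by slide. Tpx2 stood at -2.11 and -4.85 in GHCre mice, against -0.06 and -6.38 in control mice. Nusap1 stood at -2.12 and -6.13 in GHCre mice, against -0.93 and -5.60 in control mice. Kif23 differed more between the replicates of each genotype than between genotypes. Bub1b, Cdc20 and Cenpe did so in control mice only, where replicate 1 was not above background. The genotype differences were 0.46 for Bub1b, 1.35 for Cdc20, -0.73 for Cenpe and -0.05 for Kif23, while Ccnb2 differed by 0.60 ± 0.51.

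**Figure D4:**
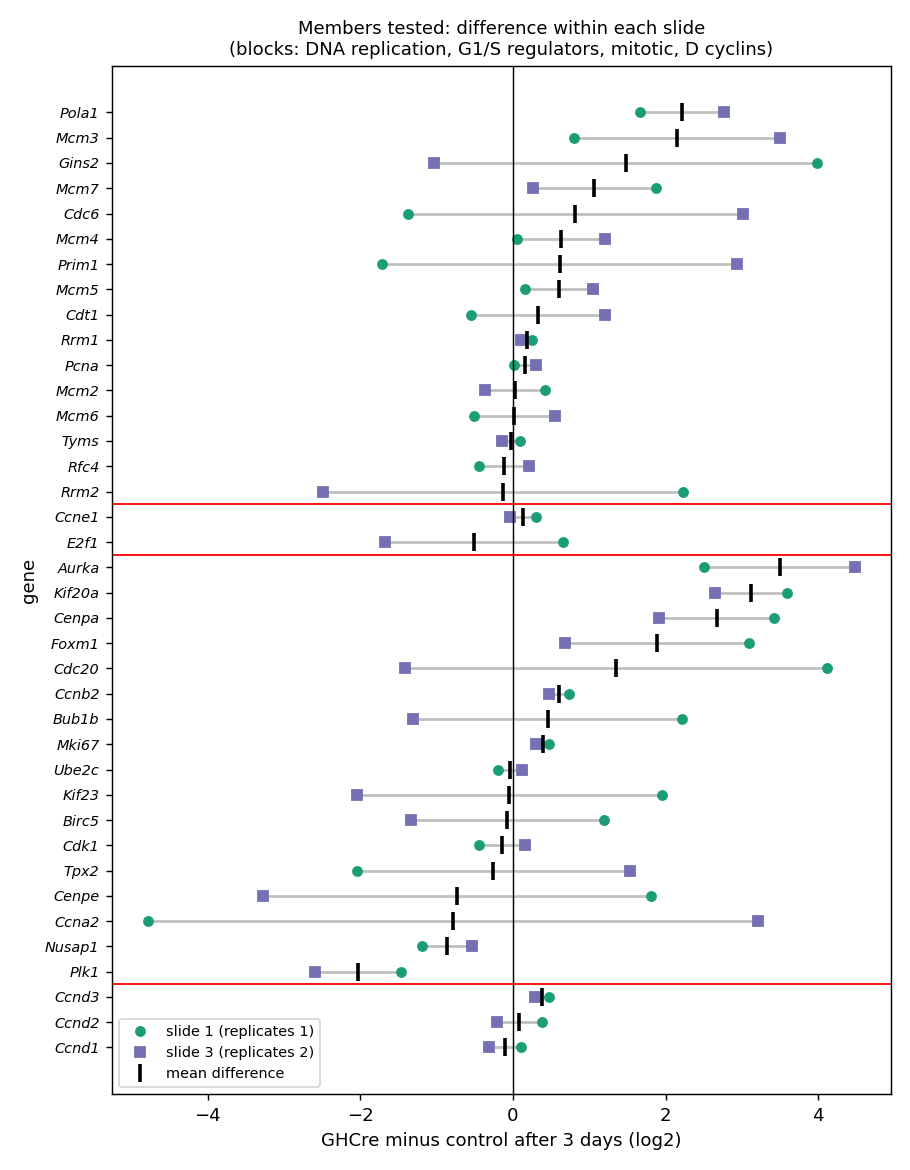
Difference in log2 level, GHCre minus control after 3 days, for the 38 members tested, within slide 1 (circles), within slide 3 (squares) and as the mean (bars). Aurka, Kif20a, Cenpa, Foxm1 and Pola1 are among the members right of 0 on both slides, and Plk1 and Nusap1 lie left of it. Ccna2, Cenpe, Rrm2 and Cdc20 are among those on opposite sides of 0.

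The regulators upstream of these genes had overlapping groups after 3 days. Ccne1, the cyclin E gene of the G1/S step, read -1.57 and -2.13 in GHCre mice, against -1.88 and -2.10 in control mice, and E2f1 read -2.54 and -2.82 in GHCre mice, against -3.20 and -1.14 in control mice. Ccnd1, Ccnd2 and Ccnd3, the D cyclins that carry growth signals to the cell cycle, were detected on all 6 arrays. Ccnd1 read -0.65 and 0.31 in GHCre mice, against -0.75 and 0.61 in control mice. Ccnd2 read 2.34 and 1.01 in GHCre mice, against 1.96 and 1.22 in control mice. Ccnd3 read 2.70 and 3.01 in GHCre mice, against 2.23 and 2.73 in control mice, and its 2 probes differed by 0.38 and -0.08. No D cyclin had groups apart, with differences of -0.10 ± 0.71, 0.09 ± 0.66 and 0.38 ± 0.44.

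Further genes of the pathway, from lists outside the 45, also held no call at an adjusted p of 0.05. Of 27 other replication genes tested, 17 were higher and 10 lower after 3 days in GHCre mice. Pold1, the catalytic subunit of polymerase delta, read -2.76 and -2.91 in GHCre mice, against 0.02 and -0.87 in control mice, a difference of -2.41 ± 0.51 (adjusted p = 0.693 with limma) opposite to that of Pola1. Fen1, the flap nuclease, read 0.21 and -0.40 in GHCre mice, against -2.28 and -1.34 in control mice. The signal of Pole2, a subunit of polymerase epsilon, was 6.34-fold higher in GHCre mice. That of Gins1, a partner of Gins2 detected on 1 of the 2 GHCre arrays, was 2.80-fold higher. Neither fold is a bound, as an undetected control signal entered that of Pole2 and an undetected GHCre signal that of Gins1. After normexp correction the difference was 0.57 for Pole2 and -0.000575 for Gins1. Of 23 other mitotic genes tested, 8 were higher and 15 lower. Ncaph, a condensin subunit, read -0.12 and -0.47 in GHCre mice and was not above background on either control array. Its signal was 26.7-fold higher in GHCre mice, which is no bound, as an undetected control signal entered it. Its difference was 4.94 (adjusted p = 0.655 with limma), and 1.81 after normexp correction. Dlgap5, a spindle protein gene, read -4.08 and -4.41, the last not above background, in GHCre mice, against -1.52 and -1.49 in control mice. Kif18a, a motor that aligns chromosomes, read -4.51, not above background, and -2.22 in GHCre mice, against -1.13 and -1.10 in control mice, and Smc2, a second condensin subunit, differed by 1.14 ± 0.48. As with Aurka and Plk1, genes of the same step thus had values on both sides of the controls.

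Among 17 brakes of the cell cycle tested, 8 were higher and 9 lower in GHCre mice after 3 days. Rb1, the retinoblastoma gene, read 0.15 and 0.66 in GHCre mice, against -1.30 and -1.15 in control mice, a difference of 1.63 ± 0.43 (adjusted p = 0.71 with limma). Btg2, an antiproliferative gene, differed by 0.57, the kinase inhibitor gene Cdkn2c by -0.89 and Ccng1, a target of p53, by -0.76. Among 14 activators, 7 were higher and 7 lower. E2f3, an E2F that drives S phase genes, read 0.51 and 0.59 in GHCre mice, against -4.87 and -1.46 in control mice, where replicate 1 was not above background. Cdk2 differed by 1.24, Mycn by -0.93 and the phosphatase gene Cdc25a by -1.41.

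Markers of the sorted fraction and of other cell types also differed between the 3 day groups. The summed linear level of 13 stem and side population markers was 20.9 and 17.0 in GHCre mice, against 15.8 and 12.5 in control mice. By single genes 10 were higher and 3 lower in GHCre mice, with 11 and 10 detected in each genotype. The summed linear level of 12 lymphocyte markers was 15.6 and 16.5 in GHCre mice, against 7.69 and 9.72 in control mice, with 8 and 9 of them detected in GHCre mice and 6 and 9 in control mice, while the B cell genes Cd79b and Ms4a1 were not above background on any array. Most of that sum is the signal of Cd3e, at 3.19 and 3.34 in GHCre mice against 2.32 and 2.46 in control mice. By single genes 7 were higher and 5 lower in GHCre mice. Of the 9 tested, 5 lay wholly above the controls and 2 wholly below, against 16.6% and 21.3% of all genes tested. The T cell genes Cd4 and Cd8a were wholly lower, by differences of -1.16 and -2.35, with Cd8a not above background in replicate 1 of GHCre. The summed level of 12 fibroblast and mural cell markers was 274 and 228 in GHCre mice, against 208 and 141 in control mice. All 12 were detected on both GHCre arrays, and 10 and 12 on the control arrays. By single genes 11 were higher and 1 lower in GHCre mice, with a median difference of 0.72. Wholly above the controls lay 7 of the 12, and 0 wholly below, against the same 16.6% and 21.3% of all genes tested. Macrophage markers had sums of 149 and 151 in GHCre mice, against 226 and 189 in control mice, with 8 and 8 of 11 detected in GHCre mice and 6 and 7 in control mice. Most of it is the signal of Itgam, with a difference of -0.44. In all 3 were higher and 8 lower, and Cd14 was wholly higher, by 1.92. Of the 8 macrophage markers tested, 1 lay wholly above the controls and 3 wholly below. Hormone cell markers had sums of 1625 and 1348 in GHCre mice, against 2299 and 2197 in control mice, with 9 of 10 detected on each. This sum is almost all Prl, at 10.59 and 10.35 in GHCre mice against 11.08 and 11.06 in control mice. In all 2 were higher, Lhb by 0.76 and Cga by 1.15 with overlapping groups, and 8 lower. The 12 endothelial markers summed to 11.1 and 8.99 in GHCre mice, against 7.78 and 7.71 in control mice, with 8 higher and 4 lower. The 4 erythroid markers on the array summed to 3.90 and 0.95 in GHCre mice, against 1.31 and 0.81 in control mice. Of them 3 were higher and 1 lower. Their part in the values of Aurka, Plk1, Pola1, Cenpa and the counts of detected mitotic genes was not tested.

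After 10 days each genotype has 1 array, and the limma tests borrow the spread of the 3 day arrays. No other array shares the slide of the control, and its slide and its genotype cannot be told apart. No gene passed an adjusted p of 0.05 with limma (0% called, with 631 at an unadjusted p under 0.05), and the lowest adjusted p of a member was 1. Among the 38 members tested, 2 were more than 2-fold higher and 11 more than 2-fold lower in GHCre mice, with 12.7% of all genes tested past 2-fold higher and 14.0% past 2-fold lower. The members' count on the lower side stands above the share of all genes and that on the higher side below it. These counts include Ccnb2 on the lower side and Cenpe on the higher, neither above background on either 10 day array. Bub1b and Kif23, on the lower side, were not above background in GHCre mice. Of the 11, 8 were mitotic genes and 2 replication genes, and 1 was the D cyclin Ccnd2. The median difference was -0.25 for the 23 mitotic genes, with 8 higher and 15 lower, and -0.96 for the 17 of them tested, with 7 higher and 10 lower. It was -0.08 for the replication genes, with 8 higher and 8 lower, against -0.00 over all genes tested.

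Aurka stood at -3.09 in GHCre mice after 10 days and at -0.37 in control mice, 6.61-fold lower in GHCre mice and opposite to the 3 day order. Its difference was -2.72 ± 0.96 (unadjusted p = 0.047 with limma), and the change of the genotype difference between the days was -6.22 ± 1.18, with an unadjusted p of 0.00609 and an adjusted p of 1. The GHCre array of 10 days lies near the 3 day controls, and the control array of 10 days near the lower of the 3 day GHCre arrays. Mki67 stood at -4.10 in GHCre mice and -1.35 in control mice, a difference of -2.76 ± 1.05 (unadjusted p = 0.0583 with limma). These are the lowest and the highest Mki67 levels of the 6 arrays. Bub1b, a spindle checkpoint kinase gene, was at -5.88 and not above background in GHCre mice, against -2.80 in control mice. Its signal was 8.50-fold lower in GHCre mice, a fold that rests on an undetected signal and is no bound. Kif23, a motor of cytokinesis, was 4.14-fold lower in GHCre mice, where it was also not above background. After normexp correction the 10 day differences were smaller, at -1.50 for Aurka, -1.10 for Mki67 and -0.57 for Bub1b.

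Hormone cell markers differed between the same 10 day arrays. Of the 9 tested, 3 were higher and 6 lower in GHCre mice, with a median difference of -3.28, and 9 of all 10 were detected on each array. Besides Gh, the gonadotroph and thyrotroph subunit gene Cga stood at -3.35 in GHCre mice against 3.88 in control mice, and Pomc, the corticotroph hormone gene, at 1.93 against 5.79 in control mice. Lhb stood at -0.98 in GHCre mice against 2.72 in control mice, and Tshb at -0.98 against 2.30 in control mice. Prl, the prolactin gene, stood at 10.82 in GHCre mice against 10.49 in control mice. Of the 12 fibroblast and mural cell markers, 4 were higher and 8 lower in GHCre mice after 10 days, with a median of -0.41. Their change of the genotype difference between the days had a median of -1.05, with 1 higher and 11 lower. After 10 days 7 stem and side population markers were higher and 6 lower. The counts were 6 and 6 for lymphocyte, 5 and 7 for endothelial and 3 and 8 for macrophage markers. The part of all these markers in the 10 day values of the cell cycle genes was not tested.

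Plk1 kept the direction it had after 3 days, at -2.36 in GHCre mice against -1.40 in control mice, with a difference of -0.96 ± 0.73. Kif20a stood at -2.65 in GHCre mice against -0.52 in control mice, and Cdc20, the activator of the anaphase complex, at -3.60 against -2.31 in control mice. Foxm1 stood at -1.64 in GHCre mice and -1.73 in control mice, and Cdk1 at -1.67 in GHCre mice and -1.89 in control mice. Cenpa stood at -1.75 in GHCre mice against -2.28 in control mice. The difference of Foxm1 was 0.10 by this probe and -0.23 as the mean of its probes, so its direction turned with the probe. No replicate can be set against these values.

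Among the replication genes, Rfc4 stood at -2.90 in GHCre mice after 10 days against -0.57 in control mice, a difference of -2.34 ± 1.21, and its second probe differed by -1.50. Pola1 stood at -1.94 in GHCre mice against -0.53 in control mice, which is again opposite to the 3 day order. Mcm5 stood at -0.42 in GHCre mice against 0.48 in control mice, and Tyms at -3.72 against -2.98 in control mice. Mcm3 was higher in GHCre mice, at -0.41 against -1.69 in control mice. Mcm6 stood at 3.21 in GHCre mice against 2.55 in control mice and Mcm7 at 1.63 against 0.84 in control mice, so members of 1 helicase ran both ways. Ccnd2 stood at 0.17 in GHCre mice against 1.92 in control mice, a difference of -1.74 ± 0.94, and its value in GHCre mice was the lowest of the 6 arrays. Ccnd1 and Ccnd3 were higher in GHCre mice by 0.62 and 0.18, and Ccne1 by 0.91.

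**Figure D5:**
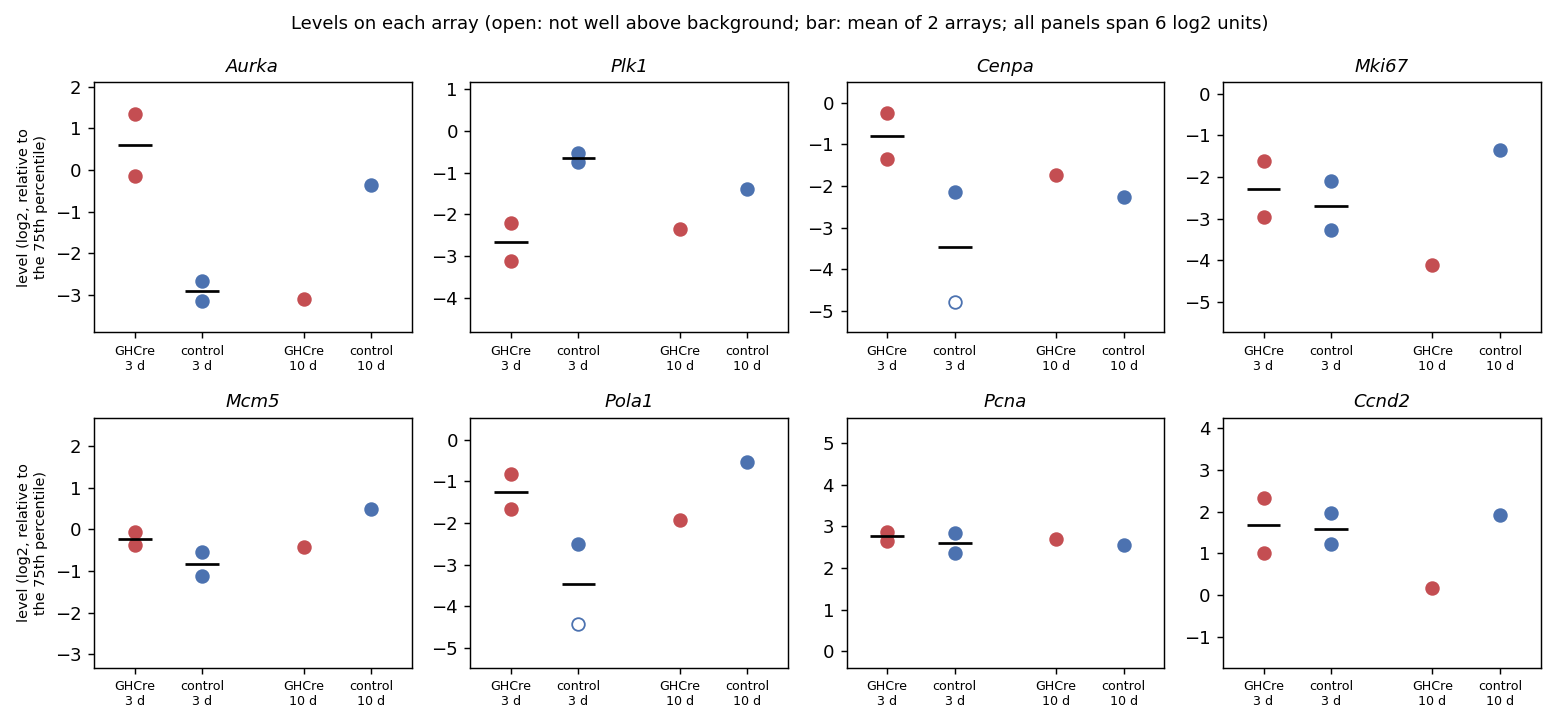
Level (log2, relative to the 75th percentile) of 8 members on each array, with GHCre in red left of control in blue for each day, open symbols where the probe was not well above background and bars at the mean of the 2 arrays of 3 days. Aurka is high in GHCre after 3 days and in control after 10 days, Plk1 is lower in GHCre at both days, and Pcna lies between 2.35 and 2.87 throughout.

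The values of 10 against 3 days were set side by side within each genotype, and no gene passed an adjusted p of 0.05 with limma in either (0% called; 844 and 848 genes at an unadjusted p under 0.05 in GHCre and in control mice). Of the 38 members tested, 11 were higher and 27 lower after 10 days in GHCre mice, and 23 were higher and 15 lower in control mice. Over all genes tested, 12010 of 20946 were higher in GHCre mice and 11534 in control mice. Aurka was at a difference of -3.68 ± 0.83 in GHCre mice and 2.54 ± 0.83 in control mice. The 2 comparisons share no array. In control mice the 10 day array is alone on slide 2, so day and slide cannot be told apart. In GHCre mice the 10 day array shares slide 3 with replicate 2 of 3 days. The change of the genotype difference between the days had a median of -0.48 in the replication genes, with 4 higher and 12 lower, and of 0.13 in the mitotic genes, with 13 higher and 10 lower. Among the 17 mitotic genes tested that median was -1.79, with 7 higher and 10 lower, so the median over all 23 is set by members at background. The value of -1.79 is that of Foxm1, which was not above background on either 3 day control array. Kif23, Tpx2 and Nusap1, also among those tested, were detected on only 2 arrays.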

How the data were processed

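Per the labels' protocols, 25000 to 50000 sorted cells per sample gave total RNA, of which 1 ng was amplified and labelled for 6 arrays in 4 groups, with n of 2, 2, 1 and 1. Per the file headers, the deposited processed signal is an intensity from Agilent Feature Extraction 10.7.3.1, background subtracted and not scaled between arrays, with positions on mm9. Values in the deposited series table are on a log2 scale and correlate at 0.9999 or more with quantile normalized scanner values. Control spots were left out (43020 kept), replicate spots averaged, and log2 signal set relative to each array's 75th percentile. The brightest of a gene's probes stood for it. The 20946 genes well above background on at least 2 of 6 arrays were fitted with limma 3.58.1 in R 4.3.3, with a mean per group and Benjamini-Hochberg adjustment at 0.05. The fit has 2 residual degrees of freedom, from the 3 day arrays, and a prior of 2.026. No probe value was saturated, and the number of arrays limits the precision.

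The 45 members cover 61 probes, 32 genes with 1 probe, 10 with 2 and 3 with 3. Members and lists were chosen with earlier results of these data known. Named with values are members detected on all 4 arrays of 3 days, up to 4 of lowest p per role after 3 days and up to 3 after 10 days, and Mki67, Top2a, Pcna, Mcm2, Cdk1 and the D cyclins. Also named are up to 4 of lowest p per pathway list, and genes whose probes disagree. Further members were named after their values were seen. Where no array of a group detected a probe, the higher of its own signal and the array's lowest detected signal entered the fold. Such a fold holds under the reported scaling only. It is no bound where an undetected signal of either group entered, as in every such fold given here. Scripts were tested on simulated data. Slide 1 holds the replicates numbered 1 of 3 days, slide 2 the 10 day control and slide 3 the rest.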

Additional observations from a re-analysis of the deposited data

How the results depend on the processing

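Settings tried were quantile normalization, normexp background correction, the deposited series table, an intensity trend in the variance, no filter or one that asks for all 6 arrays, averaged probes, a block for slide or replicate number, and each 3 day array left out. Under all of these that could be fitted, 0 genes passed an adjusted p of 0.05 with limma in the 5 comparisons, against 1374, 631, 824, 844 and 848 at an unadjusted p under 0.05 in the reported fit. The lowest adjusted p of a named member over the settings was 0.397 after 3 days. The replicate block, which is also the slide block for 3 days, left the median difference of the replication genes at 0.46 and the count of calls at 0. Deviations of equally numbered 3 day arrays correlated at 0.09, and a slide block cannot be fitted for the 10 day comparison. Normexp moved the median of all genes by -0.12 after 3 days. Leaving out single 3 day arrays moved the mitotic median after 3 days between -0.15 and 0.50, and its change between the days between -0.46 and 0.34. With groups taken from the description field, the replication median was -0.16, in a comparison that leaves out both 3 day GHCre arrays. Detection without replicate 1 of the 3 day controls was added after seeing the data.

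Several single genes changed sign, all without a call, and the cause was not tested. After 3 days Mcm2 was -0.050 with quantile normalization, -0.24 with normexp and -0.056 in the series table. Normexp gave -0.018 for Ccne1, -0.26 for Bub1b and -0.000575 for Gins1. The mean of all probes gave 0.87 for Rfc4, 0.027 for Cdk1 and 0.29 for Ube2c after 3 days, and -0.47 for Ube2c and -0.23 for Foxm1 after 10 days. E2f1 after 10 days was 0.10 with quantile normalization, 0.019 with normexp and 0.066 in the series table. With single 3 day arrays left out, Mcm2 ran between -0.22 and 0.28, Mcm4 between -0.19 and 1.45, Mcm6 between -0.32 and 0.35, Cdc6 between -0.83 and 2.46, Cdt1 between -0.33 and 0.98 and Pcna between -0.088 and 0.41. Likewise Rfc4 ran between -1.03 and 0.79, Rrm1 between -0.10 and 0.46, Rrm2 between -1.68 and 1.42, Tyms between -0.12 and 0.077, Ccne1 between -0.15 and 0.42, and E2f1 between -1.54 and 0.52. Mki67 ran between -0.28 and 1.06, Cdk1 between -0.49 and 0.20, Bub1b between -1.14 and 2.06, Ube2c between -0.31 and 0.23, Birc5 between -1.45 and 1.30, Ccnd1 between -0.78 and 0.58, and Ccnd2 between -0.57 and 0.75.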
